A study of Rattus norvegicus with 18 samples.

Results

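Respiratory complex I genes were followed here across ligated and unligated hindlimb muscle of rats with and without surgically reduced kidney mass. Every gene whose single symbol on the array starts with Nduf was taken, assembly factors (Ndufaf) included, and a gene with several probe sets was read from the brightest of them. This gave 42 genes out of 14217 with a single symbol. They were 34 subunits of the complex, 6 assembly factors, and Ndufa4 and Ndufa4l2, which carry the prefix but stand apart. Affymetrix arrays measured messenger RNA in the soleus, a calf muscle rich in slow oxidative fibres, of 9 male Rattus norvegicus. The 18 arrays fell into 4 groups by operation and side. In SNX rats, chronic kidney disease was produced by 5/6 nephrectomy, and their right limb (5 arrays) and left limb (5 arrays) were both measured. Sham rats had the operation without removal of kidney tissue, and gave 4 right and 4 left arrays. In all 9 rats surgeons tied and removed the right femoral artery 8 weeks after the kidney operation, and both muscles were taken 24 hours after that, so the left limb is an unligated muscle of a rat that had been ligated on the other side. The sample labels call every sham array nonischemic and every SNX array ischemic, against the study's design text, so groups are named by operation and side. Age and strain are not given in the sources used here.

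Complex I takes electrons from NADH, passes them through a flavin and a chain of iron-sulphur clusters to ubiquinone, and uses the energy released to pump protons across the inner mitochondrial membrane. Its catalytic core is shared with bacteria and is coded in part by the nucleus and in part by mitochondrial DNA. Many supernumerary subunits surround that core, and dedicated assembly factors build the modules and then leave. Slow muscle depends on it for sustained work, and without oxygen the chain cannot pass on its electrons. The Nduf genes give the nuclear part only, and no mitochondrially coded subunit was measured here.

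Promoters are shown first for the 4 genes that passed the right against left test described below. They passed only in the fit that pairs the limbs of each rat, and none of the 42 genes passed without the pairing. RefSeq promoter windows of assembly GRCr8, running from 250 bases before to 50 bases after the gene start, matched 40 of the 42 genes, all but Ndufa8 and Ndufb9. The Ndufaf4 window lies at chr5:43401545-43401844 on the plus strand, and the Ndufb1 window at chr6:126888815-126889114 on the minus strand. That of Ndufs3 lies at chr3:97339605-97339904 on the minus strand, and that of Ndufb2 at chr4:69334057-69334356 on the plus strand. Capitals mark every match, on either strand, to the NRF-1 motif (GCGC, any base, then TGCGC), the ETS core CCGGAAG, the YY1 motif AAGATGG or the hypoxia response core ACGTG.
Ndufaf4: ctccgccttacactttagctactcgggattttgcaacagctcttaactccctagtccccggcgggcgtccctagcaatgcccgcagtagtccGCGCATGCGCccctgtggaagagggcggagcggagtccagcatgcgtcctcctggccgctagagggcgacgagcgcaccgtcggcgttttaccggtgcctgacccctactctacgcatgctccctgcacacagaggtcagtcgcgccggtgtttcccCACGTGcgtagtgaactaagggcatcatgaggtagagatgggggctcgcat
Ndufb1: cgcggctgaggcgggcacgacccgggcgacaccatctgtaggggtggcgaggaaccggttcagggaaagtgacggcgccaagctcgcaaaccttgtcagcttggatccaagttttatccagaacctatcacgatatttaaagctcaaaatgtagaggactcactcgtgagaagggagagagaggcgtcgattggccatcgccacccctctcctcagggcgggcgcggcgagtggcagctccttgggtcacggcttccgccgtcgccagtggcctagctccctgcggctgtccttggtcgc
Ndufs3: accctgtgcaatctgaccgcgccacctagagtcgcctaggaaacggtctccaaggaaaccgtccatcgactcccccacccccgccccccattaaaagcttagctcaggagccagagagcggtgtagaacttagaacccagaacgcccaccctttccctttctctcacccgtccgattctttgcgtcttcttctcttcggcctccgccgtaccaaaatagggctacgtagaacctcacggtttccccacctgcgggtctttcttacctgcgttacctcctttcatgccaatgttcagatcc
Ndufb2: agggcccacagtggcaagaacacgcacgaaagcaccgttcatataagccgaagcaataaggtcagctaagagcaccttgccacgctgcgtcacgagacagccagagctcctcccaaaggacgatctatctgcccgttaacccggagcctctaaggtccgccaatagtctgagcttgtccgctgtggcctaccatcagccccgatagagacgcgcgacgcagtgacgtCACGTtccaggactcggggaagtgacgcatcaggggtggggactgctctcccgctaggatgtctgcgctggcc
Ndufaf4 held an NRF-1 match and the hypoxia response core on both strands, as the palindrome CACGTG. Ndufb2 held the hypoxia response core once, and the windows of Ndufb1 and Ndufs3 held none of these 4 motifs. A GC box (GGGCGG on either strand), which is not marked, stood in the windows of Ndufaf4, Ndufb1 and Ndufs3. NRF-1 matches stood in 8 of the 40 Nduf windows (20%), against 4.25% of 33469 promoters of the same length. ETS cores, bound by NRF-2 among other factors, stood in 9 (22.5%), against 8.75% of all promoters. YY1 matches stood in 10 (25%), against 7.01%. GC boxes stood in 19 (47.5%), against 33.1%. The hypoxia response core stood in 10 (25%), against 19.3%, and the TATAAA box in 3 (7.5%), against 14.2%. These are matches of letters and not measured binding.

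All 34 subunit genes read far above the middle of the array. Their means over the 18 arrays ran from 11.7 (Ndufs8) to 14.46 (Ndufb9) on the log2 scale, while the median of an array lay between 3.22 and 3.37. Each probe set hybridises with its own efficiency, so these are readings of probe sets, and their order does not give the order of transcript levels between genes. The SD over all 18 arrays ran from 0.062 for Ndufs4 to 0.23 for Ndufv3 and had a median of 0.14, where the 593 genes with a mean of at least 12 had a median SD of 0.17. Ndufs8, Ndufs4 and Ndufv3 read below a mean of 12 and are not among those genes. The probe sets of the 6 assembly factors read from 5.46 (Ndufaf1) to 11.42 (Ndufaf4) and had SDs from 0.12 to 0.43. Ndufaf1, a factor of the complex that builds the membrane arm, was the most variable gene of the family. Its values ran from 4.74 to 6.17, and its groups overlapped throughout. Ndufa4 was first described as a complex I subunit and is now assigned to cytochrome c oxidase. It averaged 14.0 with an SD of 0.068. Ndufa4l2, known as a hypoxia-induced relative of Ndufa4 in other cells, averaged 3.25, within the range of the array medians.

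Whether subunit transcripts changed in the ligated limb was asked first, with all rats together. In every one of the 9 rats the mean of the 34 subunits was lower in the right than in the left muscle, but by the subunit median this held in 8, since SNX rat 12 had a median difference of 0.0058 with 17 of 34 subunits lower on the right. In SNX rats the subunit mean on the right arrays was 13.176 in rat 12, 13.031 in rat 18, 13.196 in rat 20, 13.164 in rat 37 and 13.005 in rat 49. On the left arrays of the same rats, in the same order, it was 13.182, 13.065, 13.35, 13.33 and 13.188. In sham rats it was 13.191 in rat 11, 13.135 in rat 13, 13.232 in rat 15 and 12.877 in rat 17 on the right, and 13.208, 13.263, 13.317 and 13.13 on the left. Right and left values overlapped between rats, so limbs were compared within each rat. Besides SNX rat 12, few more than that were lower on the right in sham rat 11 (20 of 34 subunits) and SNX rat 18 (21 of 34). The right minus left difference averaged -0.11 ± 0.08 in SNX rats (SD, n = 5), -0.12 ± 0.10 in sham rats (SD, n = 4) and -0.11 ± 0.08 over all rats (SD, n = 9). It was smallest in SNX rat 12 (-0.0060), sham rat 11 (-0.017) and SNX rat 18 (-0.034), and furthest below 0 in sham rat 17 (-0.25). In bulk muscle, fewer fibres in the sample and less of a transcript per fibre cannot be told apart.

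**Figure D1:**
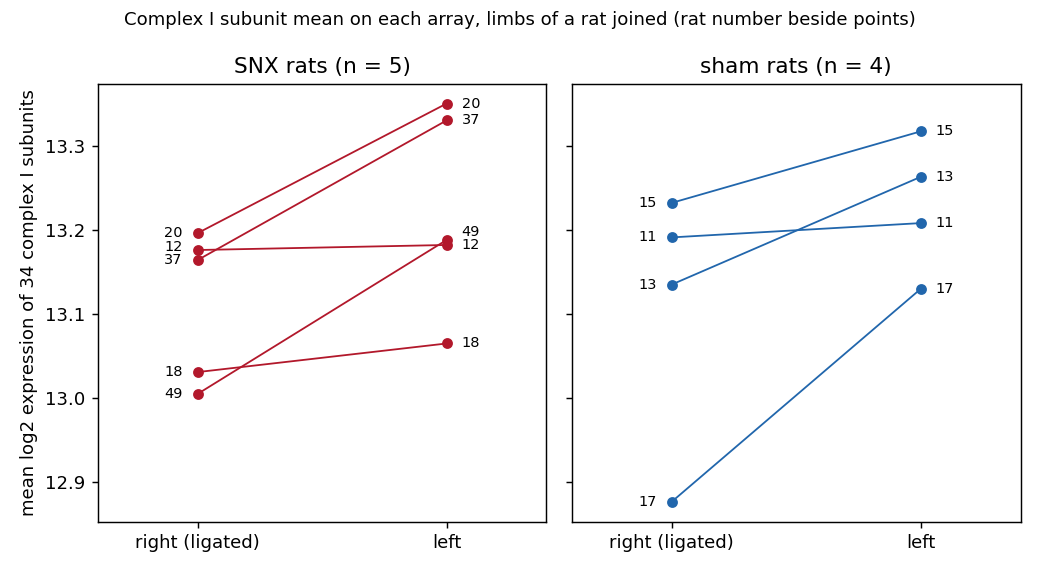
Mean log2 expression of the 34 complex I subunit genes on each array, with the right (ligated) and left soleus of a rat joined by a line, in 5 SNX rats and 4 sham rats; the number beside a point is the rat. Every line is lower on the right, with right minus left between -0.25 and -0.0060, and the right array of sham rat 17 is the lowest at 12.877.

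Gene by gene, all 34 subunits had a right minus left difference below 0 when SNX and sham rats were averaged. The differences ran from -0.23 (Ndufs3) to -0.020 (Ndufa5), with a median of -0.12. Over all 42 genes 39 lay below 0, with a median of -0.11 or -7.14%, while 59.8% of all 14217 genes and 67.8% of the 593 genes with a mean of at least 12 lay below 0, with medians of -0.012 and -0.072. The 3 genes above 0 were Ndufaf4, Ndufaf1 and Ndufa4l2, none of them a subunit. Single genes were tested with limma and Benjamini-Hochberg adjustment over all 31042 probe sets, at a threshold of 0.05. Without regard to which limbs share a rat, none of the 42 passed, against 2.55% of all probe sets, while 10 were lower and 2 higher at an unadjusted p under 0.05, against 10.8% and 8.12%. Once each rat was entered as a random block, so that its limbs were paired, 4 of the 42 passed, against 9.05% of all probe sets. Of these 3 were lower, against 4.48%, and 1 was higher, against 4.56%. At an unadjusted p under 0.05 the blocked fit had 27 lower (all probe sets, 17.2%) and 2 higher (10.4%). The share past the adjusted threshold was near that of the whole array and is no result about the family as a whole. It also rested on single animals: leaving out 1 rat gave 1 to 6 genes past the threshold, with 1 gene when SNX rat 18, 37 or 49 or sham rat 11, 13 or 17 was left out.

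Counted rat by rat, 19 of the 42 genes (45.2%) were lower on the right in at least 8 of the 9 rats. That held for 12.5% of all probe sets and for 19.9% of the genes with a mean of at least 12. Ndufa2, Ndufa7, Ndufa8, Ndufa13 and Ndufc2 were lower on the right in 9 of 9 rats, as were 2.73% of all probe sets. Ndufa13 is also known as GRIM-19, and Ndufa8 sits in the membrane arm facing the intermembrane space. Ndufaf4 alone of the family was higher on the right in 9 of 9, as were 2.85% of probe sets.

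**Figure D2:**
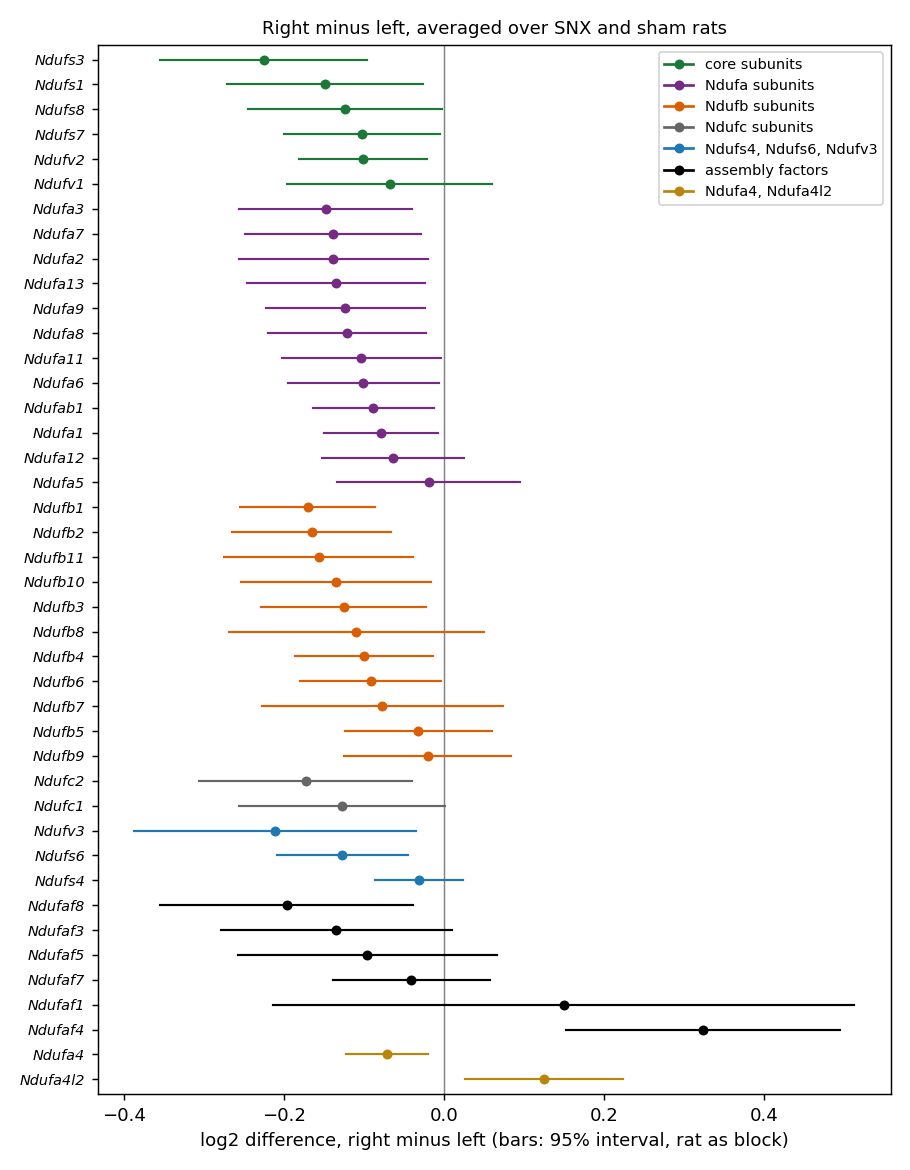
Right minus left log2 difference of each of the 42 genes, averaged over SNX and sham rats, with the 95% interval of the fit that has the rat as a block; colours give the role in the complex. All 34 subunits lie below 0, and Ndufaf4 lies furthest above 0 at 0.32.

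The 4 genes that passed with the block were 1 core subunit, 2 membrane arm subunits and 1 assembly factor. Ndufs3, a core subunit of the arm that reaches towards ubiquinone, had log2 values of 13.17, 12.85, 13.18, 12.98 and 12.72 on the right and 13.12, 12.94, 13.30, 13.16 and 13.07 on the left of SNX rats 12, 18, 20, 37 and 49. In sham rats 11, 13, 15 and 17 it had 13.06, 12.93, 13.18 and 12.72 on the right and 13.27, 13.22, 13.33 and 13.31 on the left. The right arrays of sham rats all lay under the left ones, and in SNX rats the limbs overlapped. SNX rat 12 was the 1 rat of 9 whose right value was the higher. Ndufs3 fell by 0.23 (SE 0.061, adjusted p = 0.0318 with the block, 0.11 without it), a linear change of -14.5%. Its difference was -0.14 in SNX rats and -0.31 in sham rats.

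Ndufb1, a small supernumerary subunit of the membrane arm, had 13.21, 13.01, 13.25, 13.13 and 12.99 on the right of the SNX rats and 13.18, 13.21, 13.28, 13.41 and 13.24 on the left. Sham rats had 13.18, 13.12, 13.17 and 12.93 on the right and 13.31, 13.22, 13.33 and 13.31 on the left. Again sham limbs did not overlap and SNX limbs did, and SNX rat 12 alone was higher on the right. Ndufb1 fell by 0.17 (SE 0.040, adjusted p = 0.0177 with the block, 0.0594 without it), a change of -11.2%. Ndufb2, of the same arm, had 13.58, 13.30, 13.62, 13.46 and 13.27 on the right and 13.48, 13.43, 13.70, 13.71 and 13.54 on the left of the SNX rats. Its values in sham rats were 13.42, 13.29, 13.49 and 13.28 on the right and 13.65, 13.45, 13.64 and 13.55 on the left. Both pairs of groups overlapped, with sham rat 15 on the right above sham rat 13 on the left. Ndufb2 fell by 0.17 (SE 0.047, adjusted p = 0.0382 with the block, 0.133 without it).

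Ndufaf4 works early in assembly, on the module that binds ubiquinone, and went the other way. It had 11.61, 11.48, 11.40, 11.69 and 11.75 on the right of SNX rats 12, 18, 20, 37 and 49, against 11.36, 11.03, 11.23, 11.43 and 11.23 on the left. Sham rats 11, 13, 15 and 17 had 11.95, 11.49, 11.69 and 11.17 on the right, against 11.35, 11.06, 11.55 and 11.09 on the left. The lowest right value of the SNX rats lay just under their highest left value, and the sham groups overlapped more widely. Within rats the difference ran from 0.081 in sham rat 17 to 0.61 in sham rat 11 and was above 0 in all 9. Ndufaf4 rose by 0.32 (SE 0.080, adjusted p = 0.0235 with the block, 0.094 without it), a linear change of 25.2%. The difference was 0.33 in SNX rats and 0.32 in sham rats, neither of which passed alone.

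**Figure D3:**
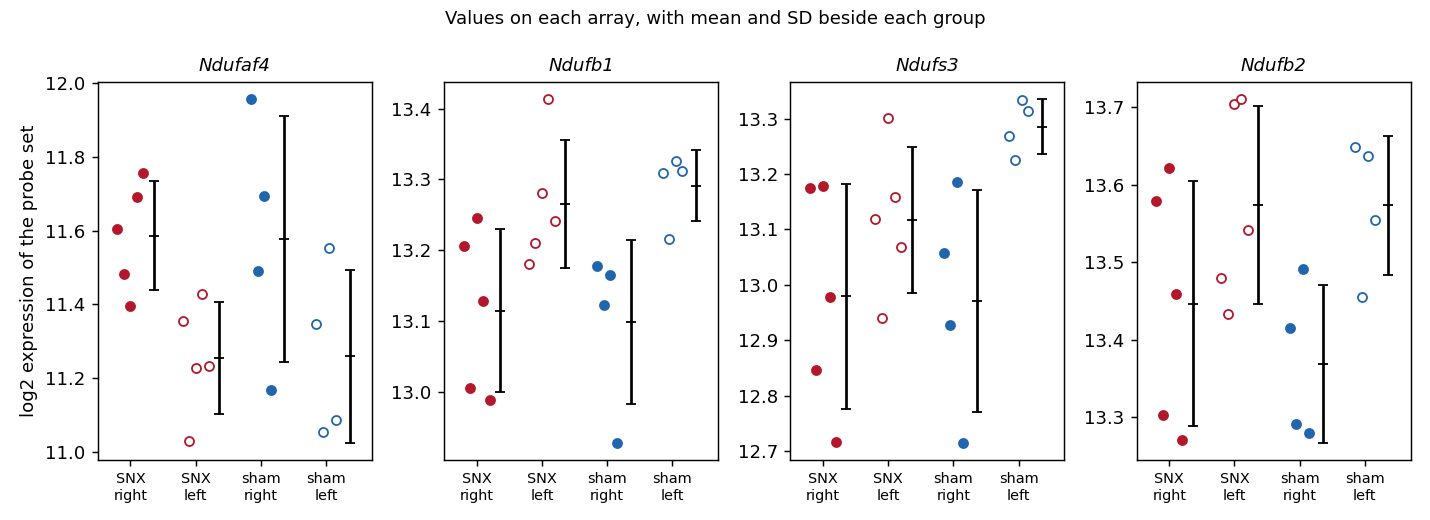
Log2 expression of Ndufaf4, Ndufb1, Ndufs3 and Ndufb2 on each of the 18 arrays (points, with mean and SD beside each group), each panel on its own axis that does not start at 0. Ndufaf4 averages 11.59 on SNX right against 11.26 on SNX left arrays, and Ndufs3 averages 12.97 on sham right against 13.29 on sham left arrays.

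Among the other core subunits none passed. Intervals in the gene by gene values that follow are those of the blocked fit. Ndufs1, which carries iron-sulphur clusters, had a difference of -0.15 (adjusted p = 0.114 with the block), and Ndufv2, another cluster protein, one of -0.10 (adjusted p = 0.10). Ndufs7 and Ndufs8, which hold the last clusters before ubiquinone, had -0.10 and -0.12. Ndufv1, the subunit that binds flavin and NADH, had -0.068 with an interval from -0.20 to 0.060, the only core subunit whose interval held 0 in that fit, where without the block those of Ndufs1, Ndufs7 and Ndufs8 held 0 too. The 12 Ndufa subunits ran from -0.15 (Ndufa3) to -0.020 (Ndufa5). Ndufab1, the mitochondrial acyl carrier protein, which serves fatty acid synthesis as well, had -0.089. None of the 12 passed, and the lowest adjusted p with the block was 0.0806. Of the 11 Ndufb subunits 2 passed, and Ndufc1 and Ndufc2 had -0.13 and -0.17 with neither passing. Ndufs6, a zinc-binding subunit added late in assembly, came closest to the threshold with -0.13 (adjusted p = 0.0508 with the block). Ndufs4, of the same NADH-oxidising end, had -0.032, and Ndufv3 had -0.21 with the widest interval of any subunit.

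Assembly factors did not lie on 1 side. Besides Ndufaf4, Ndufaf1 had 0.15 with an interval from -0.21 to 0.51. Ndufaf3, the partner of Ndufaf4, had -0.13, Ndufaf5, which modifies Ndufs7, had -0.096, and Ndufaf8, which stabilises Ndufaf5, had -0.20. Ndufaf7, a methyltransferase acting on the core, had -0.041. None of these 5 passed. Of 14 assembly factors without the Nduf prefix 13 were measured, 12 of them below 0, and 2 passed with the block, both lower, against 4.48% of all probe sets, and none without it. Those were Tmem126a (-0.26, adjusted p = 0.0235 with the block, 0.0678 without it) and Tmem126b (-0.38, adjusted p = 0.026, and 0.0807 without it), which act in building the membrane arm. Ndufa4 had -0.072 (adjusted p = 0.0736 with the block). Ndufa4l2, whose probe set read at the array median, had 0.13, with an adjusted p of 0.102.

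Ndufa7, Ndufa9, Ndufaf7 and Ndufv3 each had a second, dimmer probe set. For the first 3 it lay on the same side, with -0.29, -0.54 and -0.13 against -0.14, -0.12 and -0.041 for the probe set used. For Ndufv3 it lay on the other side, with 0.037 against -0.21. None of these 8 probe sets passed.

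Genes of the rest of the respiratory chain and of mitochondrial translation were set beside the complex I subunits in each rat. For 44 genes of complexes II to V the mean was taken. Right minus left it averaged -0.040 ± 0.079 (SD, n = 9) and was below 0 in 6 rats, while the complex I subunits averaged -0.11 ± 0.08 and were below 0 in 9. The 73 genes of the mitochondrial ribosome averaged -0.10 ± 0.10 and were below 0 in 8 rats. The median of the 593 genes with a mean of at least 12 averaged -0.061 ± 0.059 and was below 0 in 8, as was the median of the complex I subunits. With the block, 1 of the 44 genes passed lower and 1 higher, and of the 73 ribosomal genes 18 passed lower and 1 higher, against 4.48% lower and 4.56% higher of all probe sets. Without the block these counts were 0 lower and 1 higher, and 3 lower and 0 higher. These differences between sets were not tested. Of 15 regulators of mitochondrial biogenesis, 3 passed with the block, against 9.05% of all probe sets, and none without it, and they are named here after their values were seen. Tfam and Tfb2m, which drive transcription of mitochondrial DNA, fell by 0.13 (adjusted p = 0.0491 with the block, 0.145 without it) and 0.19 (adjusted p = 0.0273, and 0.0924 without it), and the coactivator Pprc1 rose by 0.91 (adjusted p = 0.0185, and 0.0527 without it).

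**Figure D4:**
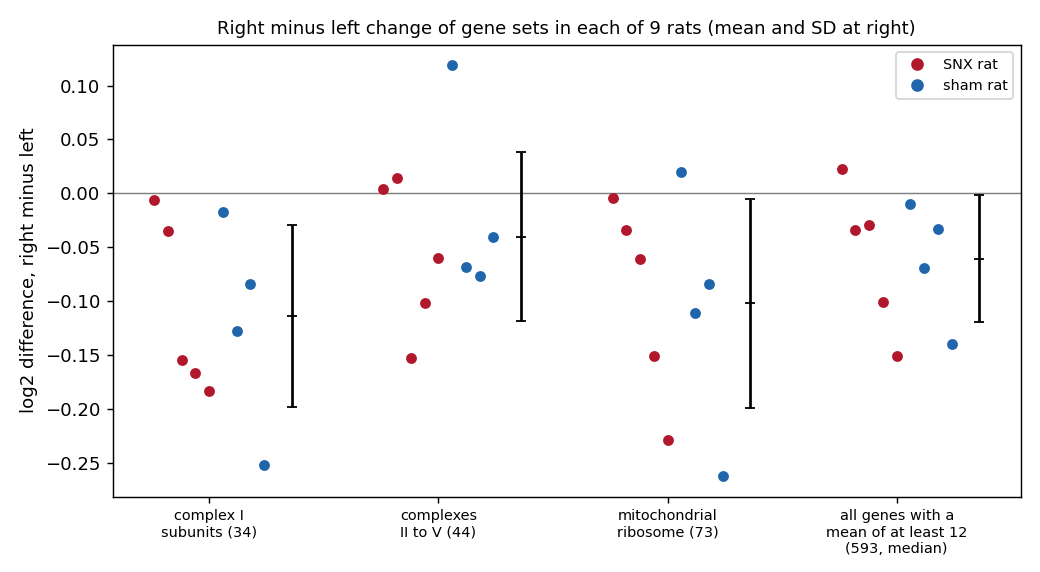
Right minus left log2 difference in each of the 9 rats for the mean of 34 complex I subunits, of 44 genes of complexes II to V and of 73 mitochondrial ribosome genes, and for the median of 593 genes with a mean of at least 12; bars give mean and SD over rats. The complex I mean lies below 0 in 9 rats (its median, not drawn, in 8), the mean of complexes II to V in 6, the ribosome mean in 8 and the median of the 593 genes in 8.

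The right arrays of SNX rat 49 and sham rat 17 stood apart from the rest, with mean correlations of 0.980 and 0.978 with the other arrays, and these rats had the 2 subunit differences furthest below 0 (-0.18 and -0.25). They also had the highest mean of 13 measured macrophage markers, 8.17 and 8.80. That mean ran from 5.44 to 8.17 on SNX right arrays, 5.05 to 5.72 on SNX left, 6.32 to 8.80 on sham right and 5.72 to 6.52 on sham left. All 13 markers lay above 0 right minus left, and 8 passed with the block, against 9.05% of all probe sets, and only Cd14 without it (adjusted p = 0.029), against 2.55%. In SNX rat 20 the macrophage mean differed by -0.28 right minus left and the subunit mean by -0.15, and in SNX rat 12 the macrophage mean differed by 1.07 and the subunit mean by -0.0060. Slow fibre markers, of which 8 of 9 were measured, averaged between 10.77 (SNX rat 20, right) and 14.77, and fast fibre markers (9 of 10) between 14.46 and 14.93. Fast fibre probe sets read high for a muscle described as slow, with Myh4 at 15.34 over all arrays against 14.88 for the slow fibre gene Myh7. Each probe set hybridises with its own efficiency, so this order does not give the order of fast and slow fibre transcripts. The slow fibre mean also differed between limbs, in both directions. It was 10.77 right and 12.94 left in SNX rat 20, but 13.11 right and 11.82 left in sham rat 17. None of the fibre markers passed in either fit. The mean of 10 fibroblast markers ran from 9.42 to 9.81 on SNX right arrays, 8.76 to 9.56 on SNX left, 9.39 to 10.45 on sham right and 9.47 to 10.24 on sham left, and all 10 lay above 0 right minus left with none passing. Endothelial markers lay above 0 for 7 of 9 measured, Schwann cell markers for 5 of 6 and adipocyte markers for 2 of 7. With the block, 4 of these passed, all endothelial (Kdr, Pecam1 and Cldn5 higher, Tek lower), and without it only Kdr and Pecam1 passed. Mag and Sox10 of Schwann cells and Lep of adipocytes lay under the median of every array. The part of these cell and fibre types in the complex I differences was not tested. Without both arrays that stood apart, 38 of the 42 genes were still below 0 in the blocked fit, but the median was -0.060 in place of -0.11. The median of the genes with a mean of at least 12 was -0.043 in the same fit. Ndufaf4 and Ndufb1 passed, while Ndufs3 and Ndufb2 did not, where 1901 of all 31042 probe sets passed. At an unadjusted p under 0.05, 5 genes in place of 27 were lower.

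Each kind of rat was then taken alone. In SNX rats 39 of the 42 genes and all 34 subunits were below 0, with a member median of -0.10, and 55.2% of all genes were below 0. None passed, against 0.0451% of all probe sets, nor with the block, against 0.319%. The lowest unadjusted p-values in the limma fit belonged to Ndufb1 (-0.15, SE 0.061), Ndufaf4 (0.33, SE 0.13), Ndufb11 (-0.22, SE 0.093), Ndufs6 (-0.13, SE 0.060) and Ndufa4l2 (0.15, SE 0.073). In sham rats 38 genes and 33 subunits were below 0, against 60.9% of all genes, with a median of -0.11, and the exception among subunits was Ndufa5 (0.077). None passed there either, against 0.148% of probe sets, and 1.8% with the block. Ndufs3 (-0.31, SE 0.11), Ndufb1 (-0.19, SE 0.068), Ndufb2 (-0.20, SE 0.086), Ndufaf8 (-0.30, SE 0.13) and Ndufaf4 (0.32, SE 0.15) had the lowest unadjusted p-values. Without sham rat 17 the sham median was -0.067. Without the 2 right arrays that stood apart the medians were -0.077 in SNX rats and -0.036 in sham rats.

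Whether kidney disease altered the right minus left change was asked with the difference of the changes, SNX minus sham. Its median over the 42 genes was 0.017, and 16 genes lay below 0, against 43.2% of all genes. None passed, nor did any probe set on the array (0%), with or without the block. No member had an unadjusted p under 0.05, which 1.41% of probe sets had in the limma fit without the block. The gene with the lowest p was Ndufa5, with a change of -0.12 in SNX rats and 0.077 in sham rats. The difference was -0.19 (SE 0.13, 95% interval -0.47 to 0.088 without the block, and SE 0.11, interval -0.42 to 0.037 with it). In order of p, the changes of Ndufs3 then differed by 0.18, of Ndufaf8 by 0.20, of Ndufc1 by 0.15 and of Ndufb11 by -0.13. For subunits the outermost ends of the 95% intervals of this difference were -0.47 (Ndufa5) and 0.55 (Ndufb8) in the fit without the block. With the block, which pairs the limbs, these ends were -0.42 and 0.46. They are ends of single genes and not a typical interval. Small differences between the changes could not be detected with these rats.

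SNX was last set against sham within each limb and over the mean of both limbs of each rat, and no complex I gene passed the test. Over the mean of both limbs the median difference was 0.0033, with 19 genes below 0, against 39.4% of all genes. For right muscles alone it was 0.013, with 16 genes below 0 against 40.2%, and for left muscles alone -0.0066, with 24 against 41%. None of the 42 passed in any of the 3 comparisons. Of all probe sets in the limma fits, 0% passed over the mean of both limbs, 0% for right muscles and 0.00644% for left muscles. No member had an unadjusted p under 0.05, which 8.36% of probe sets had over the mean of both limbs, 9.25% for right muscles and 6.25% for left muscles. Leaving out sham rat 17 gave a right limb median of -0.068 and leaving out sham rat 15 one of 0.049, so the medians had no settled sign. Ndufc2, a membrane arm subunit, had the lowest p over both limbs. It had 13.52, 13.15, 13.38, 13.30 and 13.12 on the right and 13.53, 13.20, 13.61, 13.57 and 13.37 on the left of SNX rats. In sham rats it had 13.58, 13.52, 13.64 and 13.11 on the right and 13.65, 13.64, 13.74 and 13.545 on the left. SNX and sham values overlapped in both limbs, and the difference over both limbs was -0.18 (SE 0.099, 95% interval -0.40 to 0.050). Ndufs6 had 0.079 (SE 0.047), Ndufb3 0.12 (SE 0.080), Ndufb8 -0.16 (SE 0.12) and Ndufa8 0.10 (SE 0.081). In the right limb Ndufa5 had the lowest p, with 12.95 ± 0.14 in SNX rats (SD, n = 5) and 13.11 ± 0.19 in sham rats (SD, n = 4). In the left limb it was Ndufb3, with 13.57 ± 0.14 in SNX rats and 13.42 ± 0.10 in sham rats.

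**Figure D5:**
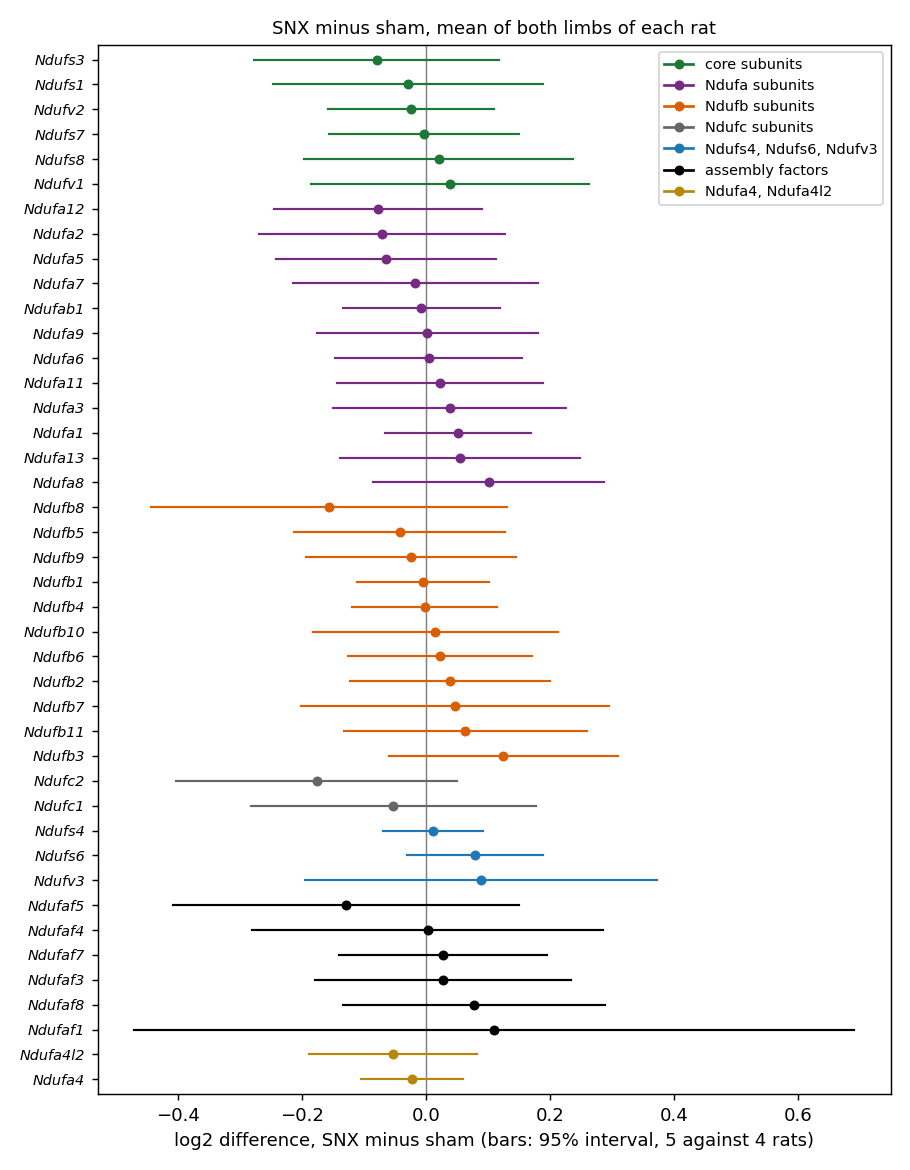
SNX minus sham log2 difference of each of the 42 genes over the mean of both limbs of each rat (5 against 4 rats), with 95% intervals; colours give the role in the complex. The points lie between -0.18 and 0.12, on both sides of 0, and every interval holds 0.

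The 95% intervals of the 34 subunits in that comparison lay between -0.44 and 0.37, and reached a median of 0.18 to either side of the estimate. The median right minus left difference of subunits was -0.12, so a difference of that size between SNX and sham rats would lie inside a typical interval. Among assembly factors, Ndufaf4 averaged 11.42 in both kinds of rat, and Ndufaf1, with 5.51 in SNX and 5.40 in sham rats, had an interval from -0.47 to 0.69.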

How the data were processed

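Affymetrix arrays of soleus RNA from 5 SNX and 4 sham rats, 1 array per limb, were hybridised with cRNA from 2 micrograms of RNA, per the labels' protocols. The authors deposited 1 table of normalized log2 values for 31099 probe sets. The submitters' processing notes name RMA, GCRMA and Partek without version or role, so the background correction behind dim probe sets is unknown. Arrays carry no read depth; their number limits the precision. After 57 controls were left out, 31042 probe sets were tested, of which 20826 list 1 gene. By the rule, 2 probe sets that list a Nduf gene with another gene were left out.

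One mean per group was fitted to all 18 arrays with limma 3.58.1 in R 4.3.3 (lmFit and eBayes; files read with data.table, version 1.17.8), two-sided, with Benjamini-Hochberg adjustment and a threshold of 0.05. SNX against sham over both limbs used the mean of each rat. The number in a sample's title is the rat, so limbs were paired by animal: deviations of a rat's limbs from their group means correlated above 0.1 in 7 of 9 rats. The blocked fit used duplicateCorrelation (consensus correlation 0.297). No 2 arrays held identical values, and the sources used here give no array batch.

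The members and lists were chosen with earlier results of these data known. Named genes are those past the threshold in either fit, the 5 lowest p-values of each comparison, the core subunits, Ndufa4, Ndufa4l2, Ndufab1, Ndufaf1, and the brightest, dimmest and 3 most variable genes; members named for their place in an ordering, for a second probe set or as the rest of their role were chosen after their values were seen. Marker lists were of macrophages, fibroblasts, endothelium, Schwann cells, adipocytes, slow and fast fibres. The fit was tested on simulated data.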

Additional observations from a re-analysis of the deposited data

Results flagged for a closer look

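Within the groups, 102 sets of values (24 named genes in each of 4 groups, and the subunit means and their differences) were examined for 1 array far from the others, and 7 were found. Chance alone gives about 1 in 20 such sets. The gap between the array and its nearest neighbour was large against the range of the group in each case. Of these, 3 lay on the low side in the arrays of rats already described as standing apart or in their other limb: Ndufs6 at 13.90 on the right of SNX rat 49, Ndufa5 at 12.83 on the right of sham rat 17, and Ndufc1 at 13.24 on the left of sham rat 17. On the right of sham rat 15, Ndufaf8 stood high at 10.04 and Ndufa4l2 high at 3.60. Ndufb1 stood low at 13.22 on the left of sham rat 13, and Ndufb8 low at 11.64 on the left of SNX rat 18.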

How the results depend on the processing

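With the rat as a replicate block, 4 members passed in the averaged right against left comparison, against 0 without the block, 2 with the rat as a fixed term (Ndufa8 and Ndufaf4) and 1 (Ndufaf4) without the block once probe sets with a mean under 5 were left out. The blocked count of 4 stood beside 2808 of all 31042 probe sets. It was 2 with arrays centred on their medians, beside 2666 probe sets. Without the right arrays of sham rat 17 and SNX rat 49 it was also 2, beside 1901 probe sets. These counts are no result about the family as a whole. Leaving out 1 rat at a time gave 1 to 6, with 1 without SNX rat 18, 37 or 49 and without sham rat 11, 13 or 17. These blocked alternatives, and centring on bright probe sets, were chosen after seeing the data. Over 17 alternatives to the blocked fit, not all of them blocked, Ndufb1 passed in 14, Ndufaf4 in 11, Ndufs3 in 6 and Ndufb2 in 5. Their adjusted p ran from 0.0153 to 0.0682, 0.0115 to 0.094, 0.0239 to 0.111 and 0.0297 to 0.133. The highest values of Ndufaf4 and Ndufb2 are those of the fit without the block, and that of Ndufb1 is from the fixed term. Each gene kept its direction in all 17. Over 18 alternatives to the fit without the block, Ndufaf4 passed in 3, and Ndufb1, Ndufs3 and Ndufb2 in 1 each. Their highest adjusted p there was 0.22, 0.172, 0.301 and 0.353, and each kept its direction in all 18. The block changed no other call on a member. Over all probe sets it called 2808 in place of 791 in the averaged comparison, 99 in place of 14 in SNX rats and 559 in place of 46 in sham rats. The 3 rescalings left 38 or 39 members below 0 in that comparison, and leaving out a rat 37 to 39.

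Counts of members below 0 in the comparisons of SNX with sham had no stable direction. Leaving out 1 rat moved them from 8 to 34 in the right limb, 11 to 31 in the left limb, 10 to 33 over both limbs and 5 to 27 for the difference of the changes. Without the 2 right arrays they were 31 in the right limb, 29 over both limbs and 29 for the difference. No member passed in any of these. Of 714 values of named genes under an alternative, none changed sign, 32 were weaker and 9 were stronger. These genes were mostly named for low p-values in these same data, so their stable sign is no independent support. The small number of rats limits every comparison.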
